A study of Homo sapiens with 2 samples.

Results

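A set of 8 of the 84 genes on an adipogenesis PCR array was examined, chosen by name as genes of heat production, mitochondrial respiration and the sirtuin family. They were Dio2, Foxc2, Prdm16, Ucp1, Nrf1, Sirt1, Sirt2 and Sirt3. The cells were HepG2, an established human hepatoma line. An untreated sample was compared with a sample kept for 72 h with MOES. MOES is the water extract of Moringa oleifera seeds, which the study examined as a source of plant miRNAs (mol-miRs). Each group held 1 sample, so no value below has a replicate error and no test was possible. The sample title gives the dose of MOES as 5 mg/mL and the array protocol gives 2.5 mg/mL.

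Brown fat burns fuel to make heat. Its mitochondria carry Ucp1, an uncoupling protein that lets protons flow back across the inner membrane without making ATP, and its identity depends on transcription factors such as Prdm16. The deiodinase Dio2 makes active thyroid hormone inside the cell and is induced by cAMP when the tissue is activated. Sirtuins are NAD-dependent deacylases that respond to the energy state of the cell. Liver cells use many of the same mitochondrial regulators but are not known as a site of Ucp1-driven heat production.

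Promoter sequence is shown for the gene that was higher with MOES (Dio2), for the thermogenic effector Ucp1 and for the sirtuin Sirt1, as the 250 bases before the annotated start in RefSeq (GRCh38.p14), 5′ to 3′ in the direction of the gene. Capitals mark matches on either strand to 3 of the 4 motifs searched. The 3 windows shown are those with a match.
DIO2: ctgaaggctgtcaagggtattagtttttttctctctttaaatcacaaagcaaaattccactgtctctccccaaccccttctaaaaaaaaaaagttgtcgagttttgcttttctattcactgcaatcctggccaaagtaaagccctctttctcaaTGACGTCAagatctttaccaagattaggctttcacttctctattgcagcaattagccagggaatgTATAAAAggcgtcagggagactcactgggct
UCP1: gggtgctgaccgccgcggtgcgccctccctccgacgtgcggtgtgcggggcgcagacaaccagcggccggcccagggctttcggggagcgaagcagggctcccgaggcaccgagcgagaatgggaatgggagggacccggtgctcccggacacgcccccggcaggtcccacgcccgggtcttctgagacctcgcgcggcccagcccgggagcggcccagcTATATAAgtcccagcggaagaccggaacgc
SIRT1: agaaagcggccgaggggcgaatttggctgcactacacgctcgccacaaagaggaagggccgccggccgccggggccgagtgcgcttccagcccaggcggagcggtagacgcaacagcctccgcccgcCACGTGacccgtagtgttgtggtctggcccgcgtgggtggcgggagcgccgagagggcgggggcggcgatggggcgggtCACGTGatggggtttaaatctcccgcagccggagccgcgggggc

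These windows lie at chr14:80212179-80212428 on the minus strand for DIO2, at chr4:140568962-140569211 on the minus strand for UCP1 and at chr10:67884406-67884655 on the plus strand for SIRT1. The DIO2 window shown holds TGACGTCA, the cAMP response element bound by CREB factors, which begins 96 bases before the start. This string is found in 1.65% of the 35116 promoter windows of the table. The DIO2 and UCP1 windows each hold TATANAA, the TATA box, which begins 31 and 30 bases before their starts and is found in 8.41% of all windows. The SIRT1 window holds CACGTG, the E-box, at 123 and 44 bases before the start, and 6.34% of all windows hold it. The other motif was GCATGCGC, the core of the nuclear respiratory factor 1 site, found in 2.63% of all windows. It was not found in the 6 windows of the 5 genes with an entry, which include SIRT2, SIRT3 and another start of DIO2. Of these 6 windows, 1 holds the cAMP response element, 2 the TATA box and 1 the E-box. The windows of SIRT2, SIRT3 and the other DIO2 start hold none of the motifs searched. Foxc2, Prdm16 and Nrf1 have no entry. The motifs do not overlap each other in these windows, and a match describes letters only. They were chosen after the promoters were seen, so the shares of all windows are no test of enrichment.

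The array reports the threshold cycle (Ct) of each well, which is the point in the PCR where the fluorescent signal passes a fixed level. An earlier Ct stands for more template, and 1 cycle corresponds to a factor of 2. The highest value recorded was 35, read here as the ceiling. All 8 genes had a Ct under 35 in the control, where 92.9% of the 84 genes did. With MOES 5 of the 8 did, where 70.2% of the panel did. The 3 at the ceiling with MOES were Nrf1, Sirt1 and Sirt3, so for these the loss of signal is known only as a minimum.

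Several other wells bear on what detection means. In the control, the reference gene Actb crossed at 34.05, later than all 8 genes, and the reference gene Gapdh at 28.46. Pparg, a gene of the panel, crossed at 19.82, ahead of the reference gene B2m at 23.82. Primers differ between genes, so a Ct under 35 shows signal in a well and not the level of a transcript. The control for genomic DNA (MGDC) crossed at 29.9 cycles in the control and at 29.56 with MOES. Of the 8 genes, 7 crossed the threshold later than this well in the control, where 57.1% of the panel did, and all 8 did so with MOES, where 82.1% of the panel did. MGDC is the name this control has on the mouse array, and whether it reads human genomic DNA was not checked. The part of genomic DNA in these late signals was not tested. Foxc2 has no intron, so that its primers cannot separate transcript from genome. The 3 positive PCR control wells (PPC) were at 35 in both samples, and the 3 reverse transcription controls (RTC) were at 31.41, 32.01 and 32.1 in the control and at 35 with MOES. A Ct of 35 therefore gives a bound only if the PCR worked in that well. All 59 MOES gene wells under the ceiling were recorded as whole cycles, whereas 0 of the 78 control wells were.

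The markers of the line gave signals of unequal strength. Agt, the angiotensinogen made by hepatocytes, crossed at 33.91 in the control and at 35 with MOES, and Nr0b2, a liver nuclear receptor, had 28.76 and 32. The 6 adipocyte markers Adipoq, Lep, Retn, Fabp4, Cfd and Adig ranged from 25.1 to 33.89 in the control and from 28 to 32 with MOES. None was later than Agt in the control, and Fabp4 at 29.9 and Lep at 33.89 were later than Nr0b2. Primers differ between genes, so these values show signal in the wells and not the order of transcript levels. The array holds too few hepatocyte genes for a full check of the line. The labels name the human array, while the deposited tables carry mouse gene names and the mouse control name MGDC. Whether the wells held human or mouse primers, and whether each name fits its well, was not checked here.

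**Figure D1:**
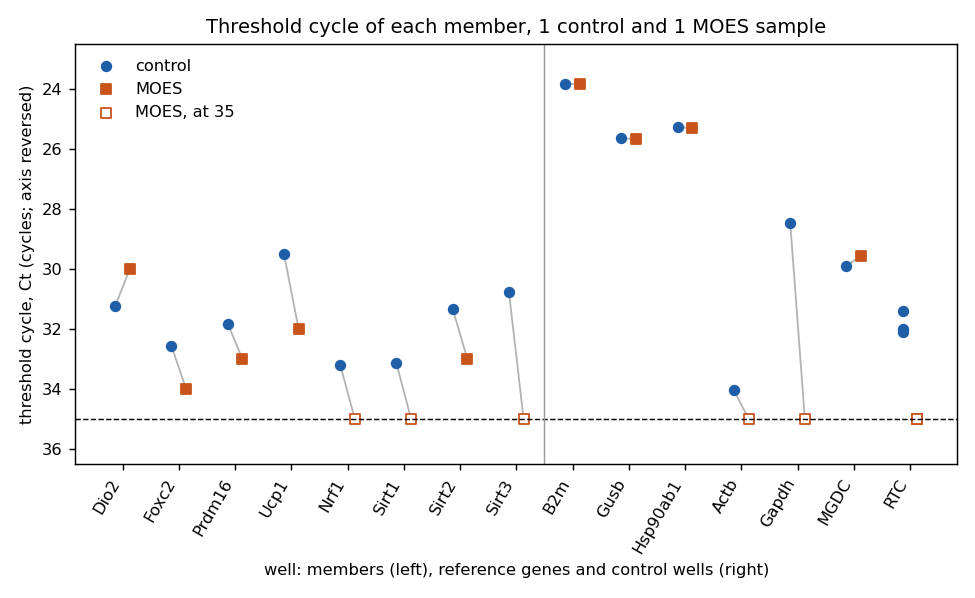
Threshold cycle (cycles, reversed axis, so that more template is higher) of the 8 genes and of the reference and control wells in the control (circles) and MOES (squares) samples, 1 sample each, with no error bars. Open squares mark MOES wells at the ceiling of 35 (dashed line). The wells of Dio2 went from 31.23 to 30, the other 7 genes were later with MOES, and MGDC was at 29.9 and 29.56.

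Fold changes were computed relative to B2m, Gusb and Hsp90ab1, the reference genes behind the deposited values. With this reference 1 of the 8 genes, Dio2, lay above 1.5-fold, a limit passed by 8.33% of the panel. The other 7 lay below 0.5-fold, where 67.9% of the panel lay. The median log2 fold change was -1.72 over the 8 genes and -1.77 over the 84. The 8 genes thus lay close to the panel as a whole. The direction depends on the reference, since against the mean of all 5 reference genes or the median Ct of the gene wells Foxc2 and Prdm16 were slightly higher with MOES, and against Gapdh alone all 5 genes with a measured Ct were. From the 3 RTC wells of the control, the SD expected when 1 well is subtracted from another was 0.530 cycles. All 8 changes exceeded 2 such SD, as did 71.4% of the panel. This SD covers late wells of a single plate, with no shift between the samples and no biological variation. Between the samples the same RTC wells moved by at least 3.59, 2.99 and 2.9 cycles. Each of these moves was larger than the recorded Ct change of every gene of the set but Sirt3.

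**Figure D2:**
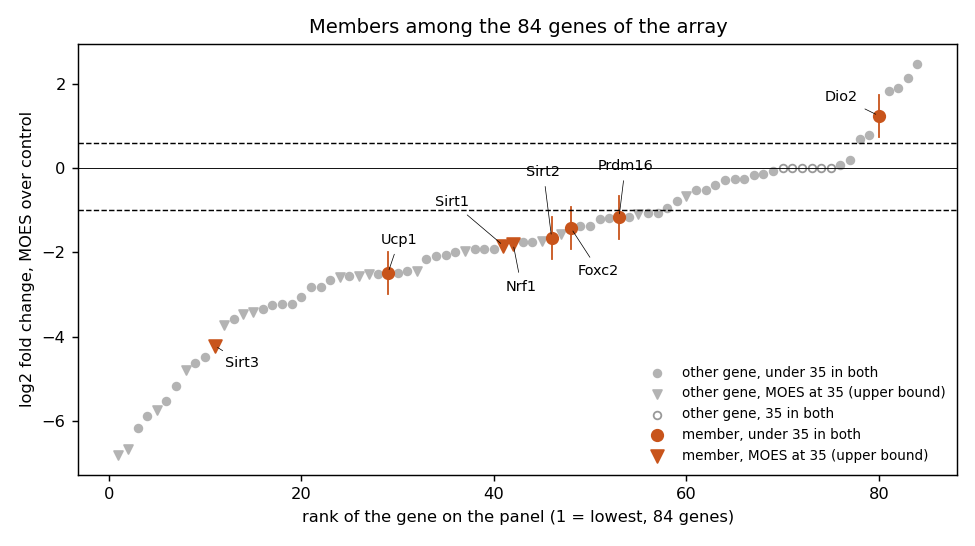
Log2 fold change of MOES over control, relative to B2m, Gusb and Hsp90ab1, for all 84 genes in order. The 8 genes are coloured, triangles are upper bounds with the MOES well at 35, dashed lines are the limits of 1.5 and 0.5, and bars span 0.5 cycle either way for the whole-cycle MOES values, not a replicate error. Dio2 stands at 1.24 and Sirt3 at -4.21 or lower. Ucp1, Sirt2, Foxc2 and Prdm16 lie between -2.49 and -1.17, and Nrf1 and Sirt1 at -1.79 and -1.84 or lower. Against all 5 reference genes or the median gene well, Foxc2 and Prdm16 change sign, and against Gapdh so do Ucp1 and Sirt2.

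Among the brown fat genes, Dio2 (chr14:80197526-80231057) crossed at 31.23 cycles in the control and at 30 with MOES. Its level was 12.5 per 1000 of the reference genes in the control and 29.7 with MOES, a fold change of 2.36. It ranked 5 from the top of the 84 genes. Dio2 was above 1.5-fold under every reference tried. With the MOES well taken 0.5 cycle later or earlier, to allow for rounding to the nearest cycle, the fold change was 1.67 or 3.34. How the whole cycles arose is not known. If values were cut down to the cycle below, the fold change could be smaller than 1.67, which was not computed. The genes outside the set with the nearest log2 fold change to its 1.24 were Ppard with 0.79, a PPAR family receptor, and Src with 0.68, a tyrosine kinase. Over 2 samples such likeness rests on a single difference per gene.

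Ucp1 (chr4:140559431-140568961) had the earliest well of the set in the control, with a Ct of 29.5, and a Ct of 32 with MOES. Its level relative to the reference genes was 41.6 per 1000 in the control and 7.43 with MOES, 5.62-fold lower. This was the lowest fold change, as recorded, among the 5 genes measured under the ceiling in both samples. In the control the Ucp1 well was 0.4 cycles earlier than the MGDC well. This lead was smaller than the 0.530 cycles taken as the SD of 1 well minus another. With MOES the Ucp1 well was 2.44 cycles later than MGDC. The log2 fold changes of Dio2 and Ucp1, which both serve heat production, differed by 3.73, a difference that no choice of reference alters.

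Prdm16 (chr1:3069203-3438621), which directs precursors to the brown fat fate, went from a Ct of 31.82 to 33. Its level was 8.37 per 1000 of the reference genes in the control and 3.71 with MOES, 2.25-fold lower. Foxc2 (chr16:86566829-86569728), a forkhead factor that raises the sensitivity of fat cells to adrenergic signals, went from 32.57 to 34. Its level was 4.98 per 1000 in the control and 1.86 with MOES, 2.68-fold lower. These were the smallest reductions of the set as recorded, and neither was firm at the precision of a whole cycle. With its MOES well 0.5 cycle earlier, Sirt2 was at a log2 fold change of -1.15. That is above the recorded -1.17 of Prdm16 and -1.42 of Foxc2, so no order of these against Sirt2 is shown. With the MOES wells 0.5 cycle earlier the fold changes were 0.629 for Prdm16 and 0.529 for Foxc2, both above the limit of 0.5. With Ct values above 32 set to 32, the log2 fold changes were -0.17 for Prdm16 and 0.01 for Foxc2.

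Nrf1 (chr7:129611720-129757076), the nuclear respiratory factor that activates genes of the respiratory chain, had the latest control well of the set. Its Ct was 33.2 in the control and 35 with MOES, a reduction of at least 3.46-fold. With Ct values above 32 set to 32, both of its wells stood at that value and its log2 fold change was 0.01. The signal was thus within a few cycles of the ceiling before treatment, and the size of the reduction was not measurable. Nrf1 and Dio2 were the 2 of these 8 genes on the study's list of 19 predicted mol-miR targets shared by human and mouse, and they lay on opposite sides of the limits. The study ran its prediction on the genes of the array and listed the human targets among those it counted as modulated by MOES, so membership is not independent evidence of a direction.

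The 3 sirtuins were all below 0.5-fold. Sirt1 (chr10:67884656-67918390), a nuclear deacetylase that acts on transcriptional regulators such as PGC-1alpha, went from a Ct of 33.15 to 35 and was at least 3.58-fold lower. Like Nrf1, it had a log2 fold change of 0.01 with Ct values above 32 set to 32. Sirt2 (chr19:38878555-38899618), mainly cytoplasmic and a deacetylase of tubulin, went from 31.34 to 33. It was 3.14-fold lower and was the only sirtuin measured under the ceiling in both samples.

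Sirt3 (chr11:215030-236931), the main deacetylase of the mitochondrial matrix, had the largest minimum reduction of the 8 genes. Nrf1 and Sirt1 started closer to the ceiling, which left less room to show one. Its Ct of 30.78 in the control was the earliest of the sirtuins, and its MOES well was at 35. The level was 17.2 per 1000 of the reference genes in the control and at most 0.928 with MOES, at least 18.5-fold lower. With Ct values above 32 set to 32, its fold change was 0.432. With Ct values as recorded, the log2 fold change of Sirt3 lay at least 2.56 below that of Sirt2, a difference independent of the reference. With its whole-cycle MOES well taken 0.5 cycle later, Sirt2 was at -2.15, still above the bound of -4.21 for Sirt3. Sirt3 ranked 11 from the bottom of the 84 genes when entered at its bound. Sirt1 lay at least 0.19 below Sirt2 as recorded. Its bound of -1.84 was above the -2.15 of Sirt2 with the later well, so no order of Sirt1 and Sirt2 is shown. No order of Sirt1 and Sirt3 can be given because both MOES wells were at the ceiling.

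In the control the wells crossed in the order Ucp1, Sirt3, Dio2, Sirt2, Prdm16, Foxc2, Sirt1 and Nrf1. Of the 7 steps in this order, 3 were larger than 0.530 cycles, from Ucp1 to Sirt3, from Prdm16 to Foxc2 and from Foxc2 to Sirt1. The other neighbours did not differ beyond the spread of single wells. With MOES, Dio2 came first at 30, followed by Ucp1 at 32, Prdm16 and Sirt2 at 33 and Foxc2 at 34. Dio2 thus moved ahead of Ucp1, in cycles as recorded and whatever the reference. In the control Dio2 was only 0.45 cycles later than Sirt3, within the spread of single wells, so a move past Sirt3 is not shown.

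The choice of reference shifts every gene by the same amount. Gapdh went from 28.46 to 35 and Actb from 34.05 to 35, whereas B2m, Gusb and Hsp90ab1 moved by 0 to 0.02 cycles. These moves were far smaller than the 0.530 cycles taken as the SD of 1 well minus another. The MOES values of B2m, Gusb and Hsp90ab1 were 23.82, 25.66 and 25.3, not whole cycles like those of the gene wells. The reason for either was not tested. Against the mean of all 5 reference genes each log2 fold change was higher by at least 1.49, which put Foxc2 at 0.07 and Prdm16 at 0.32 or higher. Sirt2 was at -0.16 or higher and Ucp1 at a fold change of 0.501 or higher, so their direction is not known there. Nrf1, Sirt1 and Sirt3 share the ceiling with Actb and Gapdh, and they have no known direction against that mean either. Which reference genes kept their level was not tested. Against the median Ct of the gene wells, which is under the ceiling, Sirt3 was still at -2.71 or lower, while Nrf1 and Sirt1 were at -0.29 and -0.34 or lower.

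**Figure D3:**
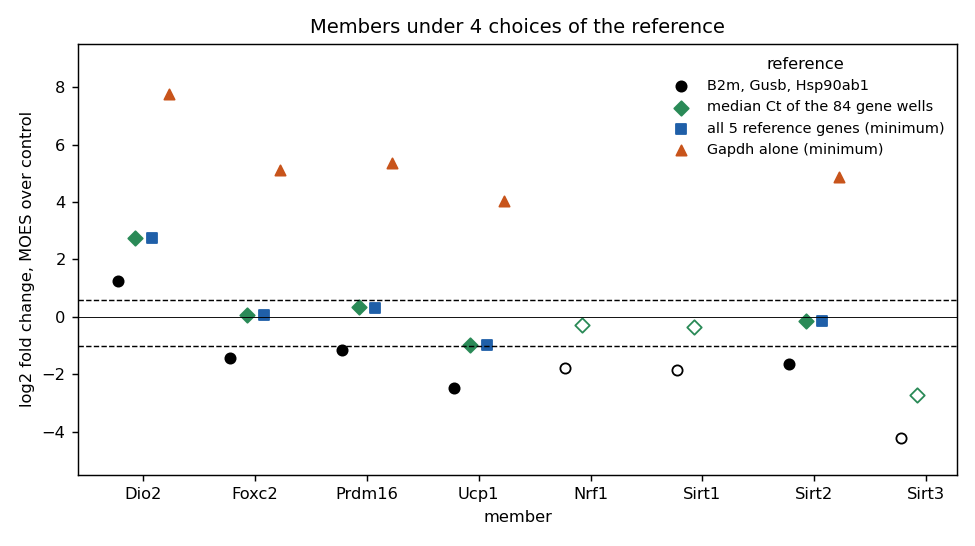
Log2 fold change of MOES over control for each of the 8 genes under 4 references, 1 sample per group and no error bars. Open symbols are upper bounds, from a MOES well at 35, and the values against all 5 reference genes or Gapdh alone are minima, since Actb and Gapdh were at 35 with MOES. Dio2 lies above the upper limit (dashed) under all 4. Foxc2 and Prdm16 change sign under the 3 others, and Ucp1 and Sirt2 against Gapdh alone.

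Regulators that act upstream of these genes were read from 2 lists. Of 9 activators of the brown fat and mitochondrial programme on the array, 7 lay below 0.5-fold, as did 67.9% of the panel. Above 1.5-fold lay 1, and 1, Bmp7, was at 35 in both samples. The median log2 fold change of the activators was -3.45 against -1.77 for the panel. Their median Ct in the control was earlier, 28.51 against 30.49, which left more room before the ceiling of 35. Ppargc1a, the coactivator PGC-1alpha that works with Nrf1 in mitochondrial biogenesis, went from a Ct of 24.47 to 30, 45.9-fold lower. Its relative Ppargc1b went from 31.54 to 35, at least 10.9-fold lower. The nuclear receptor Pparg was 36.0-fold lower and Ppara, which drives fatty acid oxidation, 22.3-fold lower. Their partner receptor Rxra was 12.0-fold lower, the transcription factor Cebpb 9.51-fold lower and the stress kinase Mapk14 5.58-fold lower.

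The activator above the limit was Creb1, the factor of the cAMP response element, with a Ct of 28.82 in the control and 27 with MOES, a fold change of 3.56. Creb1 and Dio2 were thus both higher, and a link between them was not tested. Of the 2 DIO2 windows, 1 holds the cAMP response element. Of 4 restraints of the brown fat programme, all 4 lay below 0.5-fold, where 67.9% of the panel lay. Their median log2 fold change was -2.54 against -1.77 for the panel, and their median control Ct was 29.7 against 30.49. They were Rb1 at 5.70-fold lower, Ncoa2 at 3.81-fold lower, Wnt10b at least 5.98-fold lower and Twist1 at least 53.4-fold lower. These values are relative to B2m, Gusb and Hsp90ab1. Against Gapdh alone, the regulators that were lower and had a MOES well under 35 change direction.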

How the data were processed

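Per the labels, cDNA from HepG2 total RNA was measured with SYBR Green on the Human Adipogenesis RT2 Profiler array of 96 wells, and values came from the web software of the manufacturer. The authors deposited Ct, used here as a score with a ceiling of 35, delta Ct, a log2 scale with reversed sign, and the level relative to the reference genes as a ratio. A table of the authors' own fold changes and 4 standard deviation columns without numbers were not used. The treated column was assigned as the group set against the control group in a file header. How many wells were averaged is not given in the sources used here.

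Log2 fold changes were the delta Ct of the control minus that of the MOES sample, computed from Ct with B2m, Gusb and Hsp90ab1 as reference. The limits of 1.5 and 0.5 followed the study's methods. Lists were read by counts and medians, with bounds entered as they stand. From the list of activators, 1 gene is not reported here. Named genes were all 8 genes, the listed regulators and the 2 nearest genes to the highest. Those nearest to the lowest are not given, since its value is a bound. The genes, lists and limits were chosen with earlier results of these data known, and motifs after the promoters were seen. The calculation was tested on simulated data. Alternatives covered reference genes, late wells, value source, whole-cycle precision and limits. Depth is set by the Ct ceiling. Python 3.11.15, numpy 2.4.6, pandas 2.3.3 and matplotlib 3.10.9 were used. All 8 symbols matched RefSeq genes when case was ignored.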

Additional observations from a re-analysis of the deposited data

Results flagged for a closer look

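The MGDC well, which no comparison of genes uses, gave slightly more signal with MOES than in the control, with a log2 fold change of 0.35 relative to B2m, Gusb and Hsp90ab1. This was less than the 0.530 cycles estimated from the RTC wells as the SD for 1 well minus another. Whether this control, named as on the mouse array, reads human genomic DNA was not checked.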

How the results depend on the processing

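No paired analysis was possible because there was 1 sample per group. B2m alone, the deposited delta Ct, the deposited relative levels, limits of 2 and 0.5 and MOES wells 0.5 cycle later gave 1 gene above and 7 below. MOES wells 0.5 cycle earlier gave 1 and 5. Against all 5 reference genes, where values are minima, 0 of the 5 genes with a MOES well under 35 stood below 0.5, with a median of 0.074, Foxc2 at 0.074 and Prdm16 at 0.32, and the direction of Ucp1 and Sirt2 is not known. Against Gapdh 5 lay above and 0 below, with a median of 5.11, Foxc2 at 5.11, Prdm16 at 5.36, Ucp1 at 4.04 and Sirt2 at 4.88. Against the median gene well 1 lay below, with a median of -0.22, Foxc2 at 0.08 and Prdm16 at 0.33. Ct values above 32 set to 32 left 2 below and a median of -0.08, with Foxc2, Nrf1 and Sirt1 at 0.01. Without wells at 35, 4 lay below. The ceiling limits Nrf1, Sirt1 and Sirt3, and the cause of these shifts beyond the added constant was not tested.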
